A study of Homo sapiens with 29 samples.

Results

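Transcript levels of 29 genes of cholesterol and fatty acid synthesis were followed in 29 xenograft tumour libraries. The genes were chosen by symbol, matched to the Ensembl identifiers of the deposited table, and make up 29 of its 58302 rows. By role they fell into 6 genes of the mevalonate steps, 11 genes from squalene to cholesterol, 4 genes of sterol control and transport, and 8 genes of fatty acid synthesis. The tumours grew in the mammary site of SCID-beige mice, which have no working lymphocytes of the T and B lineages, from MDA-MB-231, an established human line of triple-negative breast cancer, or from a derivative selected for resistance to paclitaxel, a drug that stabilises microtubules. All hosts received vehicle, decitabine (0.4 mg/kg, a cytidine analogue that traps DNA methyltransferases), doxorubicin (1 mg/kg, an anthracycline that poisons topoisomerase II) or both, over 26 days. The stated question was whether chemotherapy resistance is tied to expression changes linked to DNA methylation, and whether decitabine reverses them.

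The parental line gave 4 vehicle, 4 decitabine, 3 doxorubicin and 4 combination libraries, and the resistant line gave 4, 3, 4 and 3. Vehicle libraries of both lines received neither drug. Parental tumours were started with 250000 cells and drug began on day 6; resistant tumours were started with 1500000 cells and drug began on day 16, so the line cannot be told apart from these settings. The resistant line is a single derivative. Injection was bilateral, and no label links a library to its mouse, so the p-values reflect spread between tumours that may in part come from the same animal.

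Cells make cholesterol from acetyl-CoA through the mevalonate pathway, then through squalene, lanosterol and a series of sterol intermediates. The transcription factors SREBP-2 and SREBP-1, encoded by SREBF2 and SREBF1, switch on most enzyme genes of both pathways when membrane sterol is low, and INSIG1 protein holds them in the endoplasmic reticulum when sterol is high. Fatty acid synthesis starts from the same acetyl-CoA, made from citrate by ACLY and from acetate by ACSS2, and passes through ACACA and FASN before SCD, ELOVL6, FADS1 and FADS2 desaturate or lengthen the chains. In tumours both routes feed membrane growth.

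Promoter sequence was searched for motifs of this system, and 4 windows are shown. SREBF2 and MVK were picked because they hold a sterol response element, in MVK the shorter form only. INSIG1 and DHCR7 were picked as the members lowered by decitabine alone in resistant tumours, and held no exact match to the forms searched. Looser variants were not searched. The form TCACNCCA was held by only 3 of 26 members matched, so its absence does not set INSIG1 and DHCR7 apart. The windows are taken from RefSeq on GRCh38.p14, as the 200 bases before the annotated start, read in the direction of the gene. Capitals mark sterol response elements (TCACNCCAC and its shorter form TCACNCCA), CCAAT boxes on either strand (CCAAT or ATTGG) and E-boxes (CACGTG). The SREBF2 window is chr22:41832905-41833104 on the plus strand, that of MVK chr12:109573594-109573793 on the plus strand, that of INSIG1 chr7:155297678-155297877 on the plus strand and that of DHCR7 chr11:71448394-71448593 on the minus strand.
SREBF2: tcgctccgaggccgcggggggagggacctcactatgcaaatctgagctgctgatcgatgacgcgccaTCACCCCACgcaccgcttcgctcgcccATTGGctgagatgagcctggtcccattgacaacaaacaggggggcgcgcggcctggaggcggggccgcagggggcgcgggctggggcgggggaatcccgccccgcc
MVK: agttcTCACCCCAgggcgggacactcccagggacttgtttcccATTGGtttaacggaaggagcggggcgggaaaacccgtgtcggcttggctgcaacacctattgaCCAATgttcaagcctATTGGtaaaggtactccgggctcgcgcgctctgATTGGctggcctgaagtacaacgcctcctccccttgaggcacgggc
INSIG1: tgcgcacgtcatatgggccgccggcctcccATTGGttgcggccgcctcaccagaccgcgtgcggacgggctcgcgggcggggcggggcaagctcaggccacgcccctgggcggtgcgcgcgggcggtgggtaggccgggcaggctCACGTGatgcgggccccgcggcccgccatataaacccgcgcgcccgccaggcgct
DHCR7: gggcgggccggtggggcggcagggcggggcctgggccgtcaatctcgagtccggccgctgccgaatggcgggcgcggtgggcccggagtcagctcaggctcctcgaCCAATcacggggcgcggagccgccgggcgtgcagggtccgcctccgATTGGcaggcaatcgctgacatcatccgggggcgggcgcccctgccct
In SREBF2 the element lay with its first base 133 bases before the start, followed by an inverted CCAAT box. In MVK, the mevalonate kinase gene, the shorter form began 195 bases before the start, ahead of 4 CCAAT boxes in the printed stretch. INSIG1 held an inverted CCAAT box and an E-box, and DHCR7 held CCAAT boxes in both directions.

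RefSeq windows of 300 bases (250 before and 50 after the start) were matched for 26 of the 29 members; FDFT1, SQLE and FASN were not matched. The form TCACNCCA, searched on both strands, was held by 3 members (MVK, MSMO1 and SREBF2), or 11.5% of those matched, against 3.93% of 27305 promoters in the table and 3.45% of 10013 promoters of genes tested here. The full TCACNCCAC was held by SREBF2 alone (3.8% against 1.15% of all promoters), and the other short form CACCNCAC, which overlaps it, by SREBF2 and SCD (7.7% against 5.83%). A CCAAT box was found in 18 members (69.2%), against 35.7% of all promoters and 37.11% of those of genes tested. The GC box GGGCGG was held by 24 members (92.3%), against 44.59% of all and 70.38% of genes tested. The E-box was held by LSS, SC5D and INSIG1 (11.5%, against 7.43% of all and 10.14% of genes tested). Members had a median of 28 CpG sites per window (range 4 to 53), against 14 over all promoters and 26 over genes tested. A match gives the letters only and does not show that a factor binds there, and methylation was not measured.

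Levels are CPM, the count relative to a library size scaled with TMM factors (trimmed mean of M-values). The libraries were made from the 3′ ends of polyadenylated RNA, so a count marks a transcript end, and levels are compared here between groups for each gene and not between genes. Library totals ran from 3398261 to 5382295 counts with a median of 4600007. Differences are fitted log2 fold changes from edgeR's quasi-likelihood test over 13495 genes in 1 fit of all 29 libraries. The standard error (SE) was computed as the size of the log2 fold change over the square root of the test's F statistic. It is unreliable for changes near 0. Benjamini-Hochberg adjustment ran over all 13495 genes, and a gene is said to have risen or fallen where its adjusted p was under 0.05. Of the 29 members 28 passed the filter on low counts. CYP51A1, the lanosterol demethylase gene, had 3 counts in all 29 libraries; in GENCODE 2844 of its 3584 exon bases overlap AC000120.2 on the same strand, and no value is given for it. The MDA-MB-231 label was checked. VIM stood at 1450 to 3030 CPM and CD44 at 505 to 1010 CPM. PGR had 1 count in all and ESR1 stood at 0 to 2.53 CPM. CDH1, low in this line as a rule, ran from 3.71 to 179 CPM, so its level went against the label in some libraries but not in all. It had 14227 counts over all libraries, beside 16157 for KRT18 and 2472 for ERBB2. How CDH1 divided by line and treatment is not given here. The libraries resistant decitabine 2, the shallowest, and parental vehicle 3 stand apart in an earlier description of these data, and results that rest on them are given with and without them.

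Over the 15 comparisons, 12 of the 28 members tested passed in at least 1, with 22 calls in all, where 45.7% of all 13495 genes passed in at least 1. SQLE alone passed in every comparison of the lines, INSIG1 was the member that decitabine lowered most in resistant tumours, and no member passed in any comparison of a drug with vehicle in parental tumours. Comparisons share groups, so their counts are not independent of each other.

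**Figure D1:**
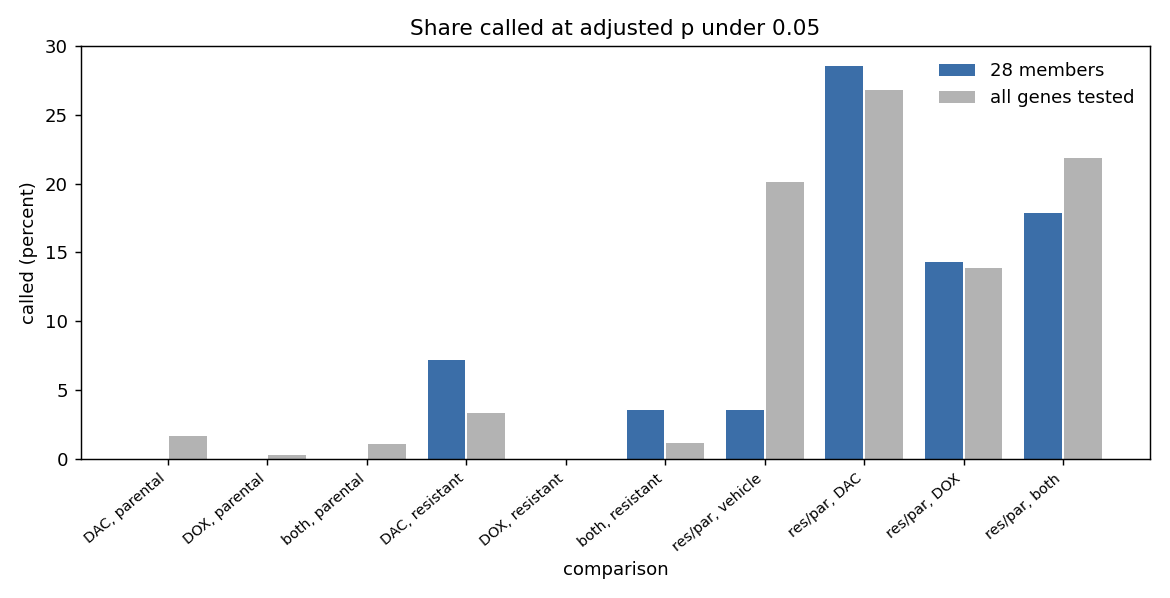
Percent of the 28 members tested (blue bars) and of all 13495 genes tested (grey bars) that passed at an adjusted p under 0.05 in each comparison. Among the comparisons of lines, the members' share was 3.57% under vehicle beside 20.1% of all genes, and 28.6% under decitabine beside 26.8%.

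SQLE encodes squalene epoxidase, the first oxygen-using enzyme of sterol synthesis (ENSG00000104549, chromosome 8, 124998497 to 125022283, GRCh38). Under vehicle its 4 parental libraries stood at 74.7, 63.7, 67.1 and 53.6 CPM and its 4 resistant libraries at 30.8, 32.2, 27.8 and 30.7 CPM. Every resistant vehicle library lay below every parental one. The fitted level fell by 1.09 on the log2 scale (SE 0.16, edgeR adjusted p = 1.38e-05), or 2.13-fold. SQLE was the only one of 28 members called under vehicle, whereas 20.1% of all genes tested were called.

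The gap was present under each drug. With decitabine SQLE stood at 70.4, 66.7, 68.8 and 71.0 CPM in parental and at 29.8, 41.2 and 34.9 CPM in resistant libraries (log2 fold change -0.98, SE 0.173, adjusted p = 0.000123). With doxorubicin the values were 76.4, 65.0 and 70.4 against 27.8, 24.0, 33.3 and 37.3 CPM (-1.21, SE 0.168, adjusted p = 8.04e-06). The groups did not overlap in either case. With the combination, parental libraries stood at 46.7, 51.7, 63.2 and 50.0 CPM and resistant libraries at 31.4, 49.8 and 25.7 CPM (-0.57, SE 0.172, adjusted p = 0.0172), and here resistant combination 2 lay inside the parental range. That last call was lost without parental combination 3 (adjusted p = 0.0552), resistant combination 1 (0.092) or resistant combination 3 (0.115), while the other 3 kept their call with any library left out. In all, 13 of the 14 resistant libraries lay below all 15 parental libraries. A stricter standard that SQLE did not meet, all 14 below all 15, was met by 1.96% of all genes tested. The share of genes with 13 of 14 below was not counted. Averaged over treatments, a comparison added after the data were seen, the fall was 0.96 on the log2 scale (SE 0.0843, adjusted p = 2.08e-10).

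**Figure D2:**
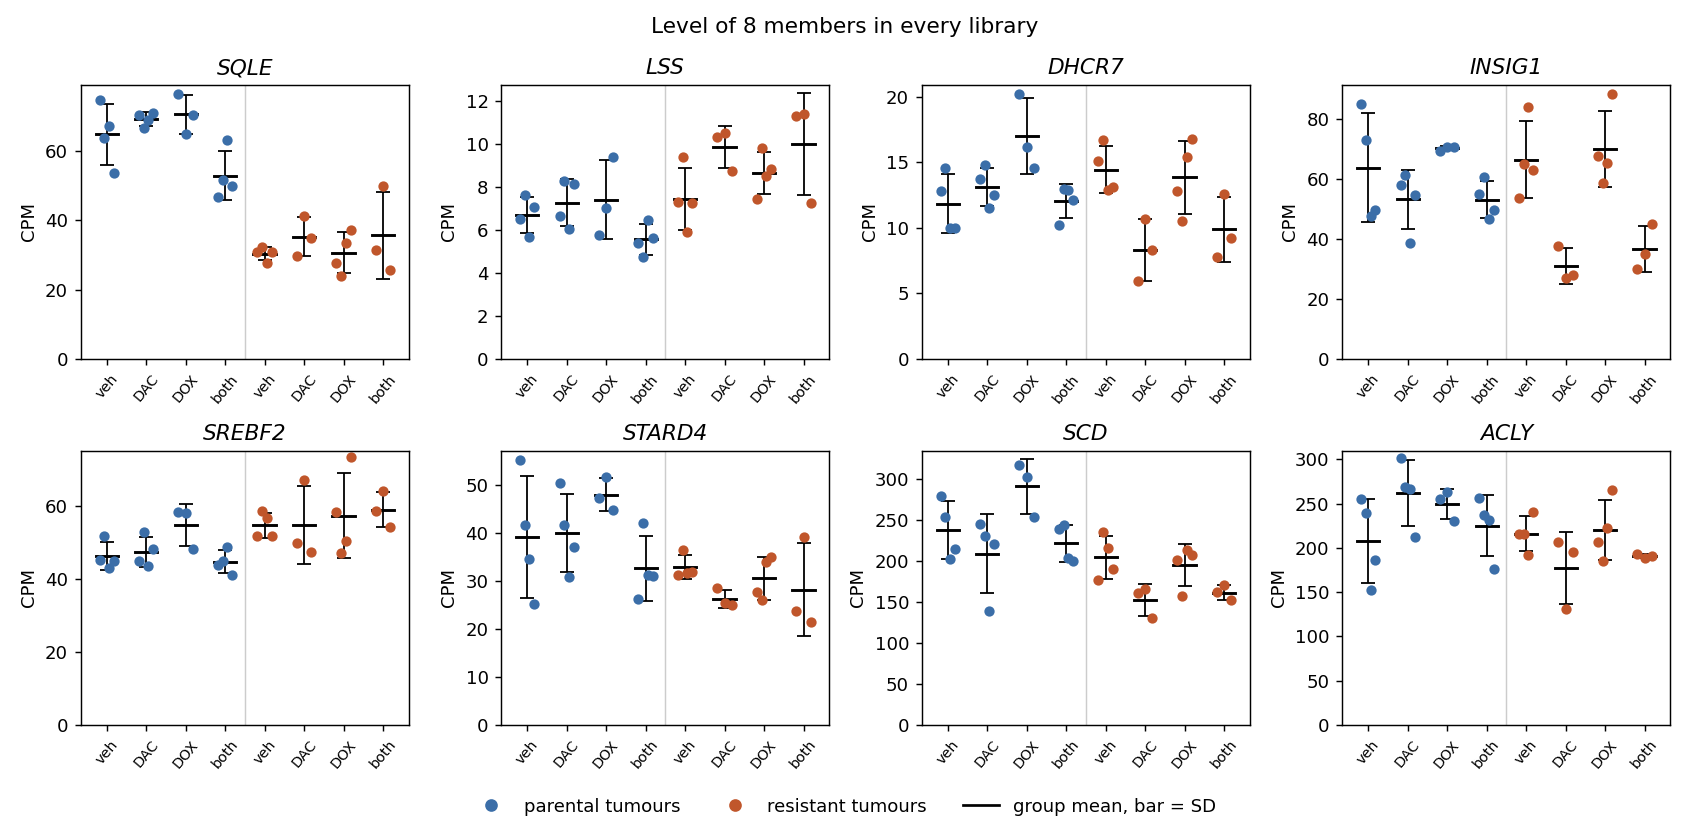
CPM of 8 members in each library (points, blue parental and orange resistant), by the 8 groups of line and treatment, with the group mean as a line and the SD as an error bar. SQLE lies at 24.0 to 49.8 CPM in resistant and at 46.7 to 76.4 CPM in parental libraries, and INSIG1 lies at 26.8 to 45 CPM in the 6 resistant libraries that received decitabine, below the other 8 resistant libraries.

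Genes near SQLE were read from the same fit. Within 2000000 bases on chromosome 8 there were 21 other genes tested, of which 11 fell and 1 rose in resistant against parental tumours under vehicle, with a median log2 fold change of -0.47. The number that fell was 12 with decitabine, 10 with doxorubicin and 7 with the combination. Of all genes tested, 11.5% fell under vehicle, 13.1% with decitabine, 8.05% with doxorubicin and 11.4% with the combination. RNF139, a sterol-sensing ubiquitin ligase gene of the same region, fell in all 4 comparisons, by 0.63, 0.94, 0.75 and 1.03 on the log2 scale in the order vehicle, decitabine, doxorubicin, combination. DNA copy number was not measured, and its part in these values was not tested.

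LSS, which closes squalene epoxide to lanosterol, rose in resistant tumours under the combination: parental libraries stood at 5.4, 4.72, 6.46 and 5.62 CPM and resistant libraries at 11.3, 11.4 and 7.23 CPM (log2 fold change 0.83, SE 0.205, adjusted p = 0.00468), with no overlap. The call held with any library left out, and 3 members rose and 2 fell in that comparison, beside 21.9% of all genes called. Under vehicle LSS stood at 6.49, 7.61, 5.66 and 7.07 against 7.28, 9.37, 5.88 and 7.23 CPM (0.14), and averaged over treatments it was 0.41 higher (SE 0.102, adjusted p = 0.00145). LSS and SQLE encode enzymes that act one after the other, and in these tumours their line differences had opposite signs. Within a single treatment, however, LSS was called with the combination only. LSS exons also overlap AP001468.1 (448 bases) and AP001469.1 (122 bases) on the other strand, and the strand setting of the counting is not given.

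Also under the combination, SREBF2 stood at 43.8, 44.8, 48.8 and 41.2 CPM in parental and at 58.7, 64.1 and 54.3 CPM in resistant libraries, without overlap (0.40, SE 0.137, adjusted p = 0.0362). ACACA, the acetyl-CoA carboxylase gene that commits carbon to fatty acids, stood at 29, 25.2, 35.1 and 23.1 against 36.2, 49.1 and 34.4 CPM (0.50, SE 0.161, adjusted p = 0.0258), with overlap. The SREBF2 call was lost in 5 of 7 fits with 1 library left out (parental combination 1, 2 or 4, resistant combination 1 or 2, adjusted p 0.06 to 0.138). That of ACACA was lost in 3 (parental combination 2 or 4, resistant combination 2, 0.0685 to 0.209).

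SCD makes oleic and palmitoleic acid from saturated chains. In resistant against parental libraries it fell with doxorubicin, from 318, 303 and 254 CPM to 201, 158, 214 and 208 CPM (-0.58, SE 0.154, adjusted p = 0.0099), with no overlap. It also fell with decitabine, from 246, 231, 139 and 221 CPM to 161, 166 and 130 CPM (-0.46, SE 0.158, adjusted p = 0.0318), and with the combination, from 239, 244, 204 and 200 CPM to 162, 171 and 152 CPM (-0.45, SE 0.158, adjusted p = 0.0381). Under vehicle the values were 280, 254, 203 and 215 against 177, 236, 216 and 190 CPM, and the difference of -0.22 did not pass. Averaged over treatments SCD fell by 0.43 (SE 0.0769, adjusted p = 3.97e-05), and that call held with any of the 29 libraries left out. The doxorubicin call was lost without parental doxorubicin 1 (0.0619). The decitabine call was lost without parental decitabine 1, 2 or 4 or resistant decitabine 3 (0.0548 to 0.138), and the combination call without parental combination 1 or 2 or any of the 3 resistant libraries (0.0689 to 0.114).

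Under doxorubicin 8.05% of all genes fell in resistant against parental tumours, and 13.9% were called in either direction. Of 28 members 4 (14.3%) fell and none rose. Besides SQLE and SCD these were NSDHL, a sterol demethylation enzyme gene, and STARD4, which encodes a carrier of cholesterol between membranes. NSDHL stood at 83.1, 64.8 and 77.7 CPM in parental and 51.1, 46.8, 42.7 and 59.6 CPM in resistant libraries (-0.59, SE 0.17, adjusted p = 0.0182). STARD4 stood at 47.3, 51.6 and 44.8 against 27.6, 25.9, 33.8 and 34.9 CPM (-0.65, SE 0.209, adjusted p = 0.0361). Neither gene's groups overlapped. The NSDHL call was lost without parental doxorubicin 1 or 3 or resistant doxorubicin 2 or 3 (0.0503 to 0.0999), and the STARD4 call without any library but resistant doxorubicin 4 (0.052 to 0.113).

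With decitabine 8 of 28 members (28.6%) fell in resistant against parental tumours and none rose. Of all genes tested 13.1% fell, and 26.8% were called in either direction. Of the 8 fatty acid members 4 fell: SCD, ACLY, FADS2 and ELOVL6. ACLY, which makes cytosolic acetyl-CoA, stood at 301, 269, 266 and 212 CPM in parental and 206, 131 and 195 CPM in resistant libraries (-0.56, SE 0.166, adjusted p = 0.013). FADS2, a desaturase of polyunsaturated chains, fell by 0.61 (SE 0.194, adjusted p = 0.0206), and the elongase gene ELOVL6 fell by 0.66 (SE 0.249, adjusted p = 0.0478). Groups did not overlap for ACLY, FADS2 and ELOVL6. Of sterol genes, SQLE, DHCR7 (-0.67, SE 0.213, adjusted p = 0.0193), INSIG1 (-0.78, SE 0.204, adjusted p = 0.00543) and STARD4 (-0.61, SE 0.216, adjusted p = 0.0373) fell.

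Part of these calls rested on single libraries. Without resistant decitabine 2 and parental vehicle 3 together, 5 members were called (SQLE, DHCR7, INSIG1, FASN and SCD), and ACLY (adjusted p = 0.0759), FADS2 (0.0961), STARD4 (0.099) and ELOVL6 (0.0565) were not. The SQLE and INSIG1 calls held with any library left out. That of DHCR7 was lost without resistant decitabine 1 (0.126), and that of ACLY without resistant decitabine 2 (0.123). FADS2 was lost without parental decitabine 1 or resistant decitabine 2 or 3 (0.0583 to 0.127), STARD4 without parental decitabine 1 or 2 or any of the 3 resistant libraries (0.0515 to 0.122), and ELOVL6 in 6 of 7 fits, all but that without parental decitabine 1 (0.0553 to 0.126).

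Averaged over treatments, 7 members fell and 2 rose in resistant tumours, or 32.1% of 28, where 46.0% of all genes tested were called. SQLE, SCD, STARD4 (-0.43, SE 0.105, adjusted p = 0.00123), INSIG1 (-0.31, SE 0.0969, adjusted p = 0.00913), FADS2 (-0.30, SE 0.0948, adjusted p = 0.0115), ACLY (-0.23, SE 0.0807, adjusted p = 0.0199) and DHCR7 (-0.25, SE 0.101, adjusted p = 0.046) fell, and LSS and SREBF2 (0.23, SE 0.0678, adjusted p = 0.00703) rose. The ACLY call was lost without parental combination 1, parental vehicle 2 or resistant vehicle 3 (0.0513 to 0.0559), and that of DHCR7 in 21 of 29 fits with 1 library left out (0.0527 to 0.12). By role, 0 of 6 mevalonate genes were called (1 at an unadjusted p under 0.05 in edgeR, and none in DESeq2). The median log2 fold change over 28 members was -0.13, beside 0.00 over all genes.

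INSIG1 encodes the sterol-dependent anchor that keeps SREBP proteins out of the nucleus, and is itself switched on by them (ENSG00000186480, chromosome 7, 155297776 to 155310235). In resistant tumours it stood at 53.7, 64.9, 84.1 and 63.1 CPM with vehicle and at 37.8, 26.8 and 28.1 CPM with decitabine. With doxorubicin it stood at 67.5, 58.8, 65.3 and 88.2 CPM, and with the combination at 29.9, 35.0 and 45 CPM. All 6 resistant libraries that received decitabine lay below all 8 that did not. The share of all genes with that order was not counted.

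Decitabine alone lowered INSIG1 by 1.10 on the log2 scale in resistant tumours (SE 0.205, adjusted p = 0.00216), or 2.14-fold, and the combination lowered it by 0.86 against vehicle (SE 0.201, adjusted p = 0.0292). Decitabine added to doxorubicin lowered it by 0.93 (SE 0.201, adjusted p = 0.0176). Averaged over doxorubicin, a comparison added after the data were seen that uses the same libraries, the fall was 1.01 (SE 0.143, adjusted p = 3.24e-05). The calls for decitabine alone and for the average held with any library left out. The combination call was lost without resistant combination 1 (0.221) or 2 (0.0775) or resistant vehicle 2 (0.0638), 3 (0.0794) or 4 (0.0585), and that for decitabine added to doxorubicin without resistant combination 1 (0.16) or 2 (0.0782) or resistant doxorubicin 4 (0.0815).

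In parental tumours INSIG1 stood at 84.9, 73.0, 47.6 and 49.7 CPM with vehicle and at 58.1, 61.2, 38.8 and 54.5 CPM with decitabine. With doxorubicin it stood at 69.4, 70.5 and 70.6 CPM, and with the combination at 54.9, 60.7, 46.6 and 49.8 CPM. The groups with decitabine overlapped the vehicle group, and the log2 fold change of decitabine alone was -0.26 and that averaged over doxorubicin -0.33 (SE 0.132, adjusted p = 0.173). No member was called for the parental average in edgeR or DESeq2 (6 at an unadjusted p under 0.05, and 1.62% of all genes called). The averaged response was lower in the resistant than in the parental line by 0.68 (SE 0.194, adjusted p = 0.0487), where 3.32% of all genes tested were called. That call was lost in 20 of 29 fits with 1 library left out (0.0502 to 0.109), and without resistant decitabine 2 and parental vehicle 3 together (0.151).

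DHCR7 encodes the reductase of the last step to cholesterol. In resistant tumours it stood at 15.1, 16.7, 12.9 and 13.1 CPM with vehicle and at 5.96, 10.7 and 8.30 CPM with decitabine, without overlap (-0.81, SE 0.214, adjusted p = 0.0332). With doxorubicin it stood at 12.8, 10.5, 15.4 and 16.8 CPM and with the combination at 7.79, 12.6 and 9.24 CPM, so the groups overlapped, and decitabine added to doxorubicin gave -0.50, which did not pass. The call for decitabine alone was lost without resistant decitabine 1 (0.107) or 3 (0.0842) or resistant vehicle 1 (0.0701) or 2 (0.087), and stood at -1.02 (0.023) without resistant decitabine 2 and parental vehicle 3. Averaged over doxorubicin DHCR7 fell by 0.65 (SE 0.149, adjusted p = 0.00641), a call that held with any library left out.

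INSIG1 and DHCR7 were the 2 members called for decitabine alone in resistant tumours, both lower, beside 3.33% of all genes tested and 1.30% called lower. INSIG1 alone was called for the combination (1.13% of all genes) and for decitabine added to doxorubicin (0.660%). In the average over doxorubicin 3 members fell and none rose, beside 9.60% of all genes called and 4.04% called lower; the additional one was SCD, at 177, 236, 216 and 190 CPM with vehicle against 161, 166 and 130 CPM with decitabine (average -0.35, SE 0.111, adjusted p = 0.0466). That call was lost in 11 of 14 fits with 1 library left out (0.0513 to 0.0956). None of the 6 mevalonate genes was called for decitabine alone in edgeR or DESeq2, and PMVK, the 1 with an unadjusted p under 0.05, was at -0.43 (SE 0.196, adjusted p = 0.217). The median over the 28 members was -0.09 with decitabine alone, beside 0.00 over all genes.

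**Figure D3:**
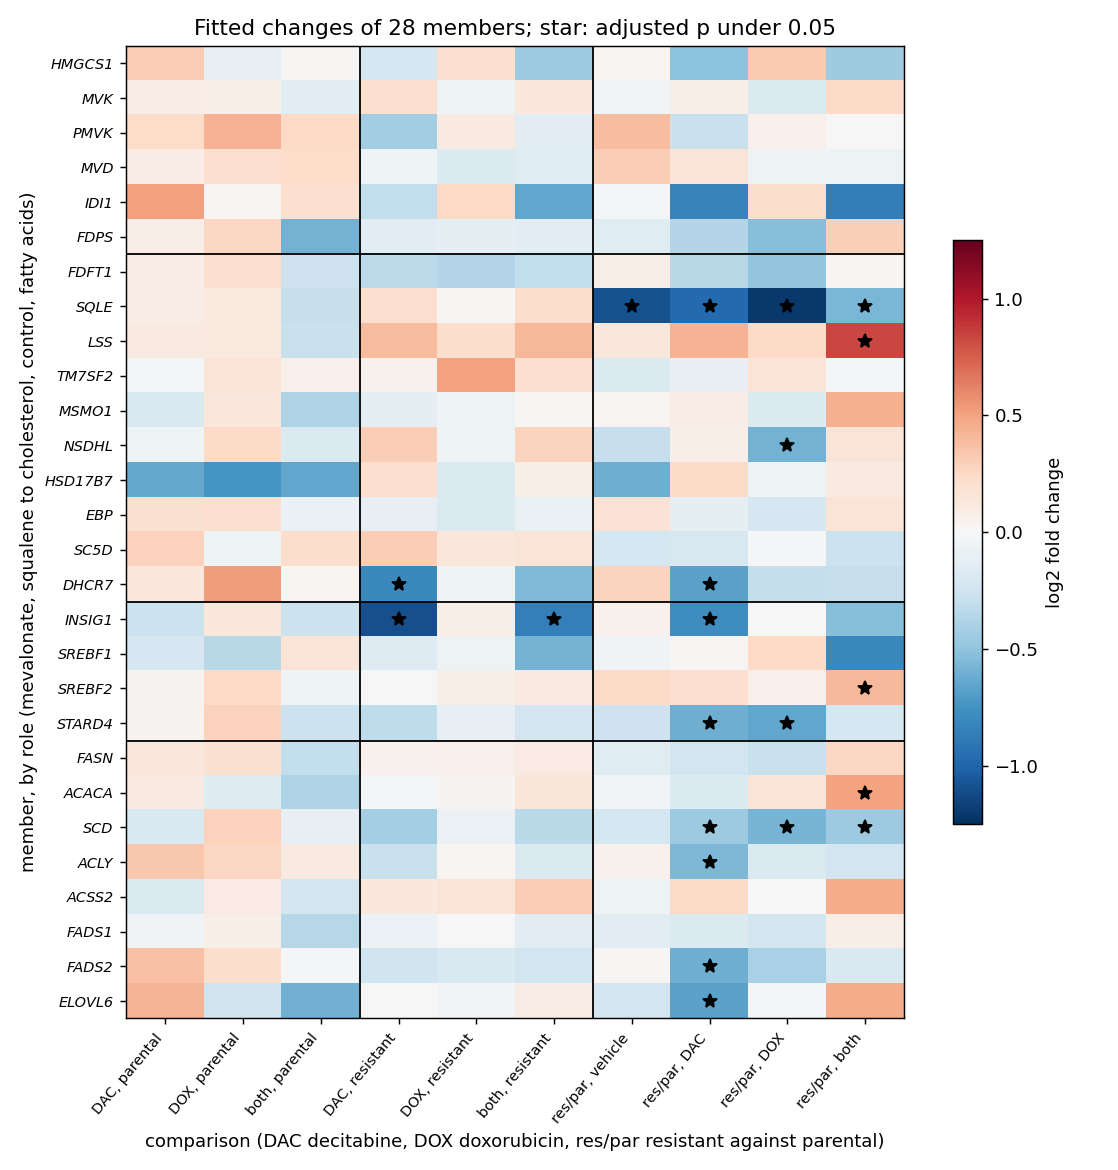
Fitted log2 fold changes of the 28 members tested (rows, by role) for each drug against vehicle in both lines and for the lines against each other under each treatment (columns), with red higher and blue lower; stars mark an adjusted p under 0.05. INSIG1 at -1.10 and DHCR7 at -0.81 carry stars for decitabine in resistant tumours, and the parental drug columns carry none.

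Decitabine alone in parental tumours left all 28 members without a call in edgeR (1.67% of all genes called). ACLY and FADS2 had an unadjusted p under 0.05, and DESeq2 called none. ACLY stood at 255, 239, 152 and 186 CPM with vehicle and 301, 269, 266 and 212 CPM with decitabine (0.33, SE 0.152, adjusted p = 0.228), with overlap. IDI1, the isomerase gene of the mevalonate steps, was at 0.51 (SE 0.317, adjusted p = 0.384), HSD17B7 at -0.64 (SE 0.315, adjusted p = 0.263). All 6 mevalonate genes had a fitted value above 0, from 0.08 to 0.51, none of them called. With the combination against vehicle none of 28 was called in edgeR (1.03% of all genes), 6 had an unadjusted p under 0.05, and DESeq2 called FADS1. The smallest p in edgeR was that of FADS1, at -0.36 (SE 0.103, adjusted p = 0.078, and 0.0318 without parental vehicle 4).

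Decitabine added to doxorubicin in parental tumours left all 28 members without a call in edgeR (0.304% of all genes called). Here 22 of 28 fitted values lay below 0, with a median of -0.31 beside 0.01 over all genes, 12 members had an unadjusted p under 0.05, and DESeq2 called 1, FADS1. In 10 members every combination library lay below every doxorubicin library, whereas 5.85% of all genes tested did so. They were FDPS, FDFT1, SQLE, MSMO1, DHCR7, INSIG1, STARD4, FASN, SCD and FADS1. All 8 fatty acid members were below 0, from -0.49 for FASN to -0.15 for ACLY.

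FDPS makes farnesyl diphosphate, the last product before the sterol branch, and showed the largest of these values. It stood at 138, 111 and 121 CPM with doxorubicin and at 73.0, 64.1, 73.5 and 63.5 CPM with the combination (-0.85, SE 0.243, adjusted p = 0.159), with no overlap. With vehicle it stood at 112, 101, 113 and 87.6 CPM and with decitabine alone at 105, 103, 102 and 126 CPM, so the combination group lay below all 11 other parental libraries. The share of all genes for which this holds was not counted. Fitted on the compared groups alone the adjusted p was 0.00587, and without a filter on low counts 2.12e-05, and over all alternatives it ran from 2.12e-05 to 0.417. FDPS has processed pseudogene copies, so its reads could be split among them. Its exons also overlap RUSC1-AS1 on the other strand over 693 of 3718 bases.

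FADS1, the delta-5 desaturase gene, stood at 232, 205 and 196 CPM with doxorubicin and at 156, 150, 166 and 154 CPM with the combination (-0.43, SE 0.111, adjusted p = 0.0978 in edgeR and 0.0358 in DESeq2). Exons of FADS1 and FADS2 overlap over 490 bases on opposite strands. FASN, the fatty acid synthase gene, stood at 197, 179 and 159 against 115, 110, 158 and 123 CPM (-0.49), and MSMO1, a sterol C4-methyl oxidase gene, at 108, 85.0 and 82.9 against 55.5, 61.5, 61.7 and 77.3 CPM (-0.52, SE 0.196, adjusted p = 0.285). The doxorubicin group has 3 libraries, of which parental doxorubicin 1 was highest of its group in 18 of 28 members. In resistant tumours the same addition gave 13 of 28 values below 0, with a median of 0.02.

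Doxorubicin alone left all members without a call in edgeR in both lines. In parental tumours 0.230% of all genes were called, 3 members (PMVK, HSD17B7 and DHCR7) had an unadjusted p under 0.05 and DESeq2 called none. The fitted values lay above 0 in 22 of 28, with a median of 0.15 beside 0.03 over all genes. DHCR7 was the 1 member whose doxorubicin libraries (20.2, 16.2 and 14.6 CPM) did not overlap vehicle (12.8, 14.6, 10.0 and 10.0 CPM), with a narrow margin, and 10.8% of all genes did not overlap. In resistant tumours 0.00% of all genes were called; 591 genes and 1 member, FDFT1, had an unadjusted p under 0.05, and DESeq2 called none.

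The difference between the lines in the response to each drug was tested directly. No member was called in edgeR for decitabine (5 at an unadjusted p under 0.05, DESeq2 none, 0.119% of all genes called). None was called for doxorubicin (2 at an unadjusted p under 0.05, DESeq2 none, 0.00%), or for the combination (4 at an unadjusted p under 0.05, DESeq2 none, 0.0222%). DHCR7 had the largest difference for decitabine, -0.95 (SE 0.284, adjusted p = 0.102), and INSIG1 stood at -0.83 (SE 0.271, adjusted p = 0.126). For the combination SQLE stood at 0.52 and LSS at 0.69 (adjusted p = 0.207 and 0.177). These p-values do not show that the lines respond alike.

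SREBF2 and SREBF1 were not called for any drug against vehicle. SREBF2 stood at 45.2, 51.9, 43.0 and 44.9 CPM in parental vehicle and at 51.7, 58.5, 56.8 and 51.8 CPM in resistant vehicle libraries, and group means ran from 44.7 ± 3.16 CPM (SD, n = 4, parental combination) to 59.0 ± 4.90 CPM (SD, n = 3, resistant combination). SREBF1 was low, with group means from 2.89 ± 0.649 CPM (SD, n = 3, resistant combination) to 5.07 ± 1.26 CPM (SD, n = 4, parental combination). Its 3′ exons overlap RAI1 on the other strand over 556 bases, and the strand setting of the counting is not given in the sources used here. SREBF2 exons overlap SREBF2-AS1 on the other strand over 280 bases. Neither SREBF1 nor SREBF2 mRNA measures the cleaved, active protein.

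Members also varied within groups, and several did so in the same libraries. In the parental vehicle group, libraries 1 and 2 stood above 3 and 4 for HMGCS1 (84.2 and 67.4 against 37.3 and 46.8 CPM), for IDI1 (37.1 and 32.8 against 14.7 and 21.0 CPM) and for INSIG1. ACLY (255 and 239 against 152 and 186 CPM), STARD4 (55.2 and 41.7 against 34.5 and 25.1 CPM) and FADS2 (33.6 and 35.0 against 20.6 and 24.0 CPM) had the same order. IDI1 spread most for its level: its SD within groups was 0.50 on the log2(CPM + 1) scale, where 500 genes of like level had a median of 0.23. FADS1 spread less than its peers, at 0.13 against 0.18.

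Libraries that stood high or low did so over many members. Resistant doxorubicin 2 was lowest of its group in 20 of 28 members, resistant combination 2 was highest in 17 (FDPS 137 CPM against 61.0 and 56.1), and resistant decitabine 2 was highest in 19. Resistant decitabine 2 was at the same time lowest of its group in 6, among them HMGCS1 (38.7 against 61.4 and 53.7 CPM), IDI1 (10.2 against 23.8 and 28.5 CPM) and ACLY (131 against 206 and 195 CPM). The members therefore did not move as 1 block in that library.

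**Figure D4:**
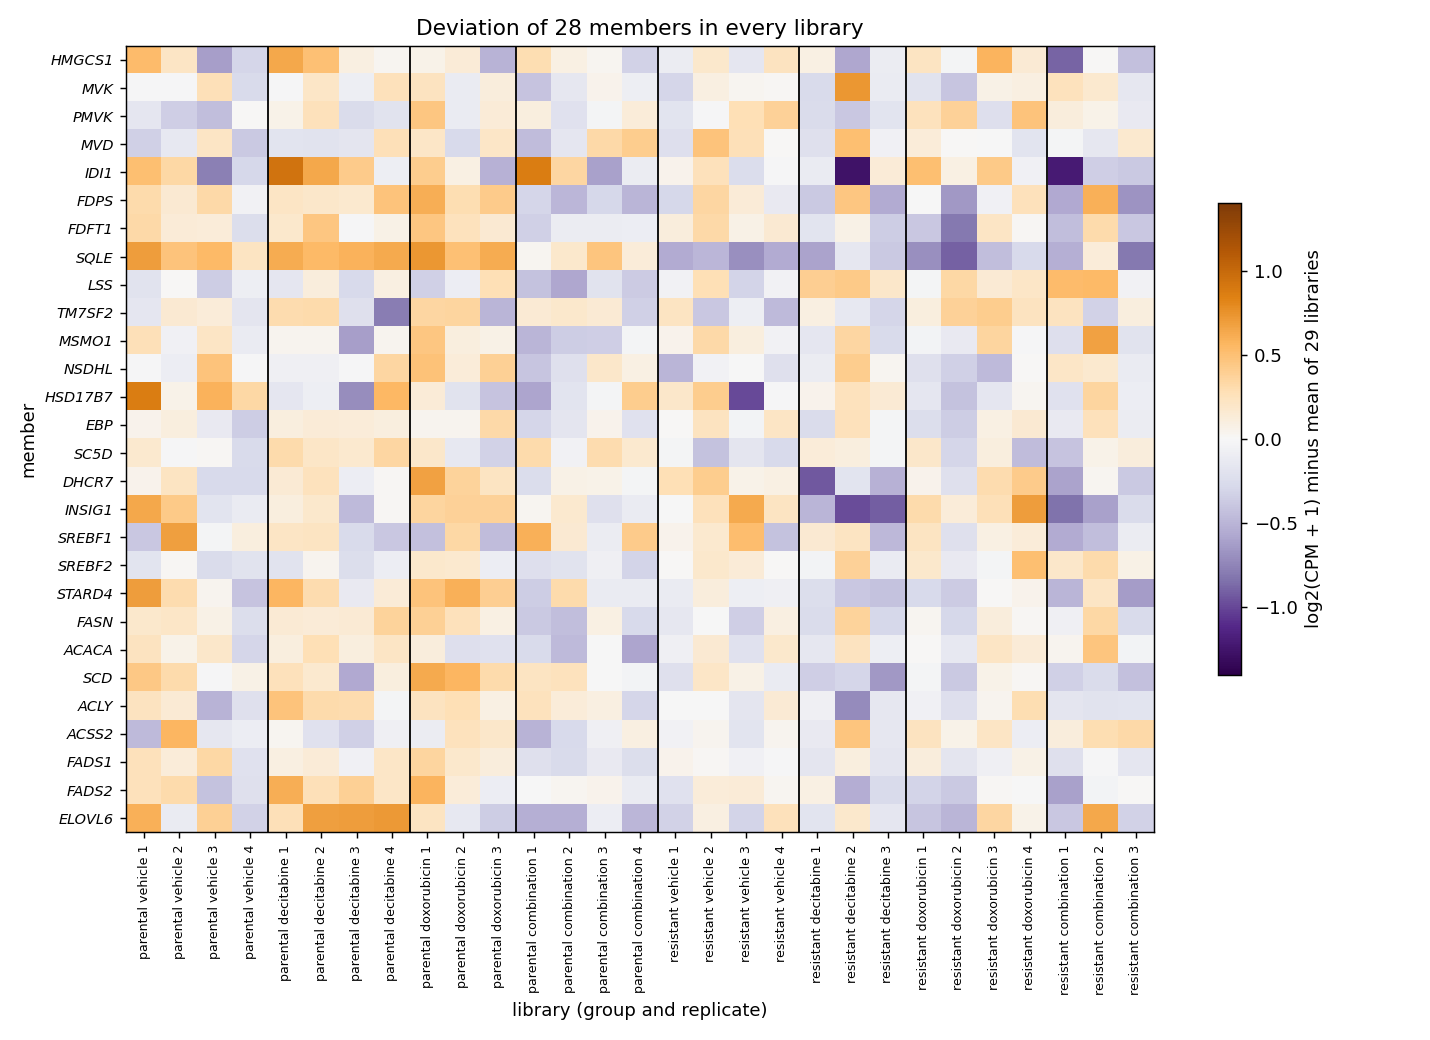
Deviation of each member in each library from the mean over all 29 libraries on the log2(CPM + 1) scale, members in rows by role and libraries in columns by group, with orange above and purple below the mean. The SQLE row is below the mean in the resistant columns other than combination 2, the INSIG1 row is low in the 6 resistant columns with decitabine, and IDI1 is the row with the widest range.

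Other genes of these pathways were read from lists of the same fit. Among 22 other sterol genes tested of 23 listed, 3 fell and none rose in resistant against parental tumours under vehicle, and 5 fell with decitabine, where 11.5% and 13.1% of all genes fell. GGPS1, which makes geranylgeranyl diphosphate, fell in all 4 line comparisons (-0.68, -0.41, -0.53 and -0.42 in the order vehicle, decitabine, doxorubicin, combination), as did RNF139. LBR, a sterol reductase of the inner nuclear membrane, fell with decitabine between the lines (-0.82).

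Among 27 other fatty acid genes tested of 32 listed, 5 rose and 4 fell in resistant against parental tumours under vehicle, where 20.1% of all genes were called. ACSL1, which activates long chains, rose by 2.67 (SE 0.657, adjusted p = 0.00485), ACACB, the mitochondrial acetyl-CoA carboxylase gene, by 0.95 (SE 0.244, adjusted p = 0.00587) and AGPAT2, an enzyme of phosphatidic acid synthesis, by 0.77 (SE 0.179, adjusted p = 0.00253). DGAT2, which makes triglyceride, fell by 1.41 (SE 0.244, adjusted p = 0.000116). ACACB rose and DGAT2 fell in all 4 line comparisons. With decitabine alone in resistant tumours ACSL4, which activates polyunsaturated chains, fell (-0.48, SE 0.129, adjusted p = 0.0375), and no other gene of the list was called, beside 3.33% of all genes.

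Fatty acid oxidation genes (12 tested of 12) gave 2 lower and none higher in resistant tumours under vehicle, where 11.5% of all genes fell: the thiolase gene ACAA2 (-0.79) and the medium-chain dehydrogenase gene ACADM (-0.59). ACAA2 fell in all 4 line comparisons. With decitabine alone in resistant tumours ACADVL, the very-long-chain dehydrogenase gene, fell (-0.62, SE 0.152, adjusted p = 0.0216). Of 7 sterol efflux and LXR target genes 6 were tested, and 1, MYLIP, which encodes a ubiquitin ligase induced by sterols, fell under vehicle (-0.96).

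Markers of host or other cell types moved in these comparisons too, and their part in the members' values was not tested. The 12 adipocyte markers, of which 4 were tested, summed to 63.1 to 122 CPM over the libraries, mostly PNPLA2 (58.3 to 119 CPM), and ADIPOQ had no count in any library. FABP4, the fatty acid binding protein of adipocytes and capillary endothelium, rose in resistant tumours with decitabine averaged over doxorubicin (2.64, SE 0.684, adjusted p = 0.0177), where INSIG1, DHCR7 and SCD fell. It also rose in resistant against parental tumours under the combination (2.71, SE 0.852, adjusted p = 0.0247) and averaged over treatments (1.42, SE 0.584, adjusted p = 0.0495). Its level reached 32.4 CPM in 1 resistant combination library, with a median of 1.52 CPM in that group and of 1.73 CPM in the parental combination group. The other adipocyte markers tested, CFD, CD36 and PNPLA2, were not called in the comparisons where FABP4 rose. In the same order they stood at 0.02, 0.18 and 0.03 for decitabine averaged over doxorubicin in resistant tumours. For the lines averaged over treatments they stood at -0.21, -0.22 and -0.03.

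The 9 endothelial markers, of which 5 were tested, summed in resistant tumours to 21.5 to 29.4 CPM with vehicle, 38.3 to 51.4 CPM with decitabine, 20.3 to 34.8 CPM with doxorubicin and 38.5 to 72.5 CPM with the combination. CLDN5 had no count in the resistant vehicle, doxorubicin and combination groups. The 11 myeloid markers, of which 7 were tested, summed in the same order to 117 to 149, 182 to 230, 83.2 to 94.1 and 167 to 185 CPM. TYROBP had no count in the resistant vehicle, doxorubicin and combination groups, and ITGAM none in the resistant vehicle group. Both sums were thus higher in every resistant library with decitabine than in any without it, the libraries in which INSIG1 was low. The sums follow a few genes. Over all libraries LAPTM5 had 11085 counts, CD68 3214 and CTSS 1957, but ITGAM 5 and TYROBP 2. TIE1 had 1918, PECAM1 1580 and ENG 1159, but VWF 8 and CLDN5 3. The sums therefore do not measure the number of such cells. The 10 fibroblast markers, of which 6 were tested, overlapped between the same groups, at 658 to 2100, 825 to 1560, 218 to 1430 and 390 to 2110 CPM.

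Among single markers in resistant tumours, ENG (1.26), FCER1G (3.71) and LAPTM5 (0.84) rose with decitabine alone. PECAM1 (1.47) and FCER1G (2.68) rose with the combination, and PECAM1 (1.14) and LAPTM5 (1.4) with decitabine added to doxorubicin. Averaged over doxorubicin PECAM1, CDH5, TIE1, ENG, FCER1G and LAPTM5 rose. In parental tumours LAPTM5 (0.85) and CTSS (1.20) rose with decitabine alone. The averaged decitabine response was higher in the resistant than in the parental line for PECAM1, TIE1 and ENG, the comparison in which INSIG1 was lower. CDH5 (0.72) and TEK (-0.27) were not called in it.

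Between the lines, CTSS was higher in resistant tumours under each treatment (1.64 with vehicle, 0.74 with decitabine, 1.63 with doxorubicin and 0.72 with the combination). Under vehicle PECAM1, TIE1 and CSF1R fell and LAPTM5 rose. The other endothelial markers tested were not called there and differed in sign, with CDH5 at 1.68, TEK at 1.06 and ENG at -0.45. With decitabine CDH5, FCER1G, LAPTM5 and the fibroblast marker FAP rose, with doxorubicin PECAM1, CSF1R and LAPTM5 fell, and with the combination CDH5 and LAPTM5 rose. Averaged over treatments PECAM1 and CSF1R fell, and CDH5, FCER1G and CTSS rose. Of 11 line traits of MDA-MB-231, 9 were tested and 3 rose under vehicle, beside 20.1% of all genes called in either direction. The list holds traits expected present and traits expected low, so the count alone does not bear on the label. In bulk tumours fewer cells of a type and less RNA per cell cannot be told apart. The share of counts from mitochondrial genes was alike, from 7.33% in parental combination to 8.34% in resistant decitabine libraries on average.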

How the data were processed

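RNA of snap-frozen tumours was sequenced from 3′ ends (Lexogen QuantSeq FWD, per the labels). The authors deposited raw counts per gene, whole numbers with no normalisation. The submitters' processing notes name cutadapt, STAR 2.7.3a, featureCounts, DESeq2 and GRCh38.p10; the annotation release, strand setting and treatment of mouse reads are not given in the sources used here, so overlapping genes and reads of mouse stroma could enter the counts. Groups came from the titles.

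The filter filterByExpr (minimum count 10, minimum total 15) left 13495 genes, which held 28 members. TMM factors scaled the library sizes, and levels are CPM on those sizes. All 29 libraries entered 1 robust quasi-likelihood fit of 8 group means in edgeR 4.0.16 (R 4.3.3), tested on simulated data first, with 15 contrasts and 4 added after the data were seen; Benjamini-Hochberg adjustment ran over all genes tested. DESeq2 1.42.0, other scalings and filters, the replicate block, the compared groups alone and leaving out each library were alternatives.

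Members, gene lists and naming rules were chosen with earlier results of these data known. The rule named the called members of each role by smallest adjusted p, or the member with the smallest p where none was called, and up to 4 called genes of each other list; a part is printed. Same-numbered libraries of different groups (94 pairs) correlated from -0.488 to 0.466 in their deviations, so the numbers were not taken to pair them. Counts of any 2 libraries of a group differed by more than sampling noise (chi-square over degrees of freedom at least 3.92). Total counts per library limit low genes most: SREBF1 had about 4 CPM.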

Additional observations from a re-analysis of the deposited data

Results flagged for a closer look

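In groups of 4 libraries, 1 library can lie far from the other 3, and 140 such groups of member levels were checked with Dixon's test. It marked 11, where chance alone marks about 1 in 20. Parental decitabine 4 was the high library for MVD (21.6 CPM, others 15.5 to 15.8), FDPS (126 CPM, others 102 to 105), NSDHL (75.2 CPM, others 56.2 to 58.3) and FASN (193 CPM, others 165 to 166). In the same group parental decitabine 3 was low for MSMO1 (50.9 CPM, others 80.8 to 81.1) and parental decitabine 1 was low for ELOVL6 (41.4 CPM, others 55.6 to 56.9). In the parental combination group, library 1 was low for FDFT1 (45.8 CPM, others 53.6 to 54.2), library 4 was low for TM7SF2 (4.79 CPM, others 7.06 to 7.27) and library 3 was high for ELOVL6 (31.9 CPM, others 23.3 to 24.2). Parental vehicle 3 was high for NSDHL (82.8 CPM, others 55.6 to 58.7), and resistant vehicle 2 was high for STARD4 (36.5 CPM, others 31.1 to 31.9).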

How the results depend on the processing

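Members called were counted under each alternative, and the cause of the changes was not tested. Upper quartile scaling gave 5 for the lines with decitabine and 2 for the line difference in the averaged decitabine response. Without a filter the counts were 2 for the combination in each line, 1 (parental) and 3 (resistant) for decitabine added to doxorubicin, 2 and 1 for the line differences in the decitabine and combination responses, and 2 (parental), 5 (resistant) and 4 (line difference) for averaged decitabine. DESeq2 gave 1 each for the parental combination and decitabine added to doxorubicin, and 3 for the line difference in averaged decitabine. Fits on the compared groups alone gave 1 for decitabine and 0 for the combination in resistant tumours, 1 each for decitabine added to doxorubicin and averaged decitabine in parental tumours, and 3 each for the lines with decitabine and with the combination. Without the 2 libraries that stood apart the lines with decitabine gave 5 and the line difference in averaged decitabine 0. With 1 library left out, counts ran from 5 to 7 (lines, decitabine), 1 to 4 (doxorubicin), 2 to 6 (combination), 7 to 12 (averaged), 1 to 2 (decitabine, resistant), 0 to 1 (combination in each line, decitabine added in resistant tumours, line difference for decitabine), 2 to 4 (averaged decitabine, resistant) and 0 to 3 (its line difference), and did not change elsewhere. SREBF2 with doxorubicin in resistant tumours ran from -0.069 (without resistant doxorubicin 4) to 0.15 (without resistant doxorubicin 2). With the replicate block the counts were 1 (vehicle), 8 (decitabine), 3 (doxorubicin), 5 (combination) and 9 (averaged) for the lines; for the 8 called with decitabine, IDI1 took the place of ELOVL6, and 1 member, NSDHL in place of INSIG1, was called for the line difference in averaged decitabine. Of 29 libraries, 6 correlated best with their own number. Depth limits LSS, SREBF1, TM7SF2, HSD17B7 and ACSS2, which stand at or under about 10 CPM. It also limits DHCR7, with group means of 8.33 CPM in resistant decitabine and 9.87 CPM in resistant combination libraries.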
